A study of Mus musculus with 16 samples.

Results

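Rnf43 and 8 further genes that set how strongly a cell responds to Wnt proteins (Znrf3, Lrp5, Lrp6, Fzd3, Fzd4, Axin1, Axin2 and Ctnnb1) were followed in ageing mouse rods, the dim-light photoreceptors of the retina. The 9 genes were picked by symbol from the 45594 genes of the deposited gene table. Rnf43 was put on the list because its RNA was higher in old rods, so its levels are a description and carry no test. The other 8 have a test where they were abundant enough, and they too were listed with earlier results of these data known. Rods were flow sorted from C57BL/6J mice carrying Nrlp-GFP, in which the promoter of Nrl, a transcription factor of rods, drives green fluorescent protein. All groups carry this reporter, and they differ by age alone in the labels: 3M, 12M, 18M and 24M, meaning 3, 12, 18 and 24 months, with 4 libraries each. Total RNA was sequenced, and the sorted fraction was above 98% pure on resorting per the labels. Whether a library is from 1 mouse or a pool was not stated in the sources used here, so p-values measure the spread between these libraries.

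Wnt proteins bind Frizzled receptors (Fzd genes) together with the co-receptors Lrp5 and Lrp6. Binding stops a destruction complex, built on the scaffold Axin, from degrading β-catenin, the product of Ctnnb1, which then enters the nucleus and works with TCF/LEF factors on target genes. Rnf43 and Znrf3 are related membrane E3 ubiquitin ligases that send Frizzled receptors to degradation. R-spondins, bound to Lgr receptors, remove the ligases from the membrane. Axin2, Rnf43 and Znrf3 are themselves common Wnt target genes, which makes them negative feedback regulators. In the retina, Fzd4 and Lrp5 are best known as the receptor pair for norrin in vascular growth.

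Libraries held 20579144 to 28791777 estimated counts. Values below are CPM (counts scaled to a common library size with TMM factors) unless TPM (counts per transcript length, scaled to a common total) is stated. The summed level of 14 rod markers was 44845 to 49191 CPM in the 3M libraries and 35738 to 45935 in the 24M libraries. In this bulk RNA, fewer cells of a type and less RNA per cell cannot be told apart. Müller glia markers summed to 211 to 359 CPM at 3M and 291 to 417 at 24M, and cone markers to 65.7 to 119 and 84.9 to 112. For bipolar cells the sums were 386 to 447 and 369 to 433, and for amacrine and ganglion cells 133 to 158 and 117 to 152. Microglia markers summed to 18.3 to 19.9 CPM at 3M and 19.6 to 22.8 at 24M, astrocyte markers to 10.8 to 12.8 and 11.9 to 12.9, pericyte markers to 5.21 to 10.8 and 5.78 to 9.22, and markers of the retinal pigment epithelium to 14.1 to 18.7 and 13.5 to 15.6. The authors' normalized table leaves out 12M replicate 4, 18M replicate 3 and 24M replicate 3. Their slopes of log2 CPM on transcript length were -0.05, 0.08 and -0.08 per doubling of length, and the other 13 libraries ranged from -0.04 to 0.07. Results that rest on these 3 libraries are also given without them.

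Rnf43 (ENSMUSG00000034177) lies on chromosome 11 of GRCm38 from 87662722 to 87735539, plus strand. At 3M its level was 3.97, 4.60, 5.78 and 3.98 CPM in replicates 1 to 4. At 12M the 4 libraries stood at 14.8, 13.9, 13.7 and 10.5 CPM, and at 18M at 20.7, 18.9, 17.4 and 23.2 CPM. The youngest rods thus held the least Rnf43 RNA, and every 12M library lay above every 3M library. At 24M the values were 24.5, 24.4, 31.7 and 23.3 CPM. The order was 3M, 12M, 18M, 24M, with no overlap between the libraries of any neighbouring ages. Age means were 4.58 ± 0.852, 13.2 ± 1.86, 20.1 ± 2.46 and 25.97 ± 3.87 CPM (SD, n = 4 each), which are 2.89, 4.38 and 5.67 times the 3M mean at the 3 later ages. The largest of the 3 steps fell between 3M and 12M, which is also the longest span of age, so step sizes are not rates. The later steps were 1.52-fold from 12M to 18M and 1.29-fold from 18M to 24M. The fitted log2 change at 24M was 2.50. These levels rest on 92 to 142 estimated counts per library at 3M and 495 to 807 at 24M. Rnf43 reached 5 CPM in 1 of 4 libraries at 3M and in 13 of 16 libraries in all, so it entered the fit through the later ages. Without the 3 libraries absent from the authors' table, the 12M, 18M and 24M means were 14.1 ± 0.604, 20.9 ± 2.13 and 24.1 ± 0.686 CPM (SD, n = 3 each). The authors' deposited table of comparisons gives log2 differences from 3M of 1.73, 2.29 and 2.44 for the same ages.

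**Figure D1:**
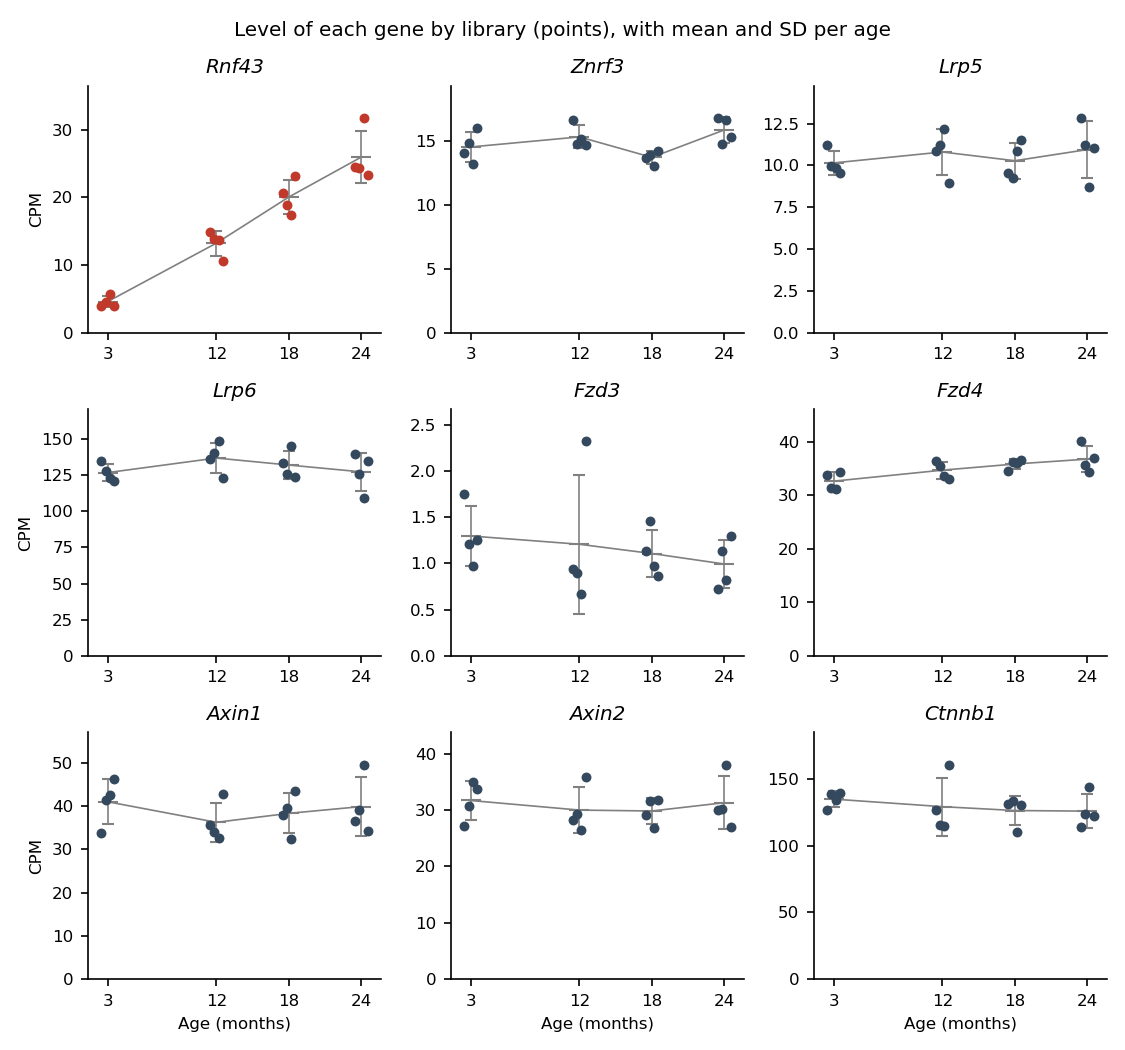
CPM of the 9 genes in each of the 16 libraries (points) by age, with the mean and SD of the 4 libraries of an age. Rnf43 goes from 4.58 to 25.97 CPM in steps that do not overlap, and in the other 8 panels the ages that are neighbours in the order of their means overlap.

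The RefSeq promoter table holds 2 start sites for Rnf43. Both windows (250 bases before to 50 after the start, GRCm38.p6, plus strand) are shown. Of the deposited transcripts, Rnf43-204 and Rnf43-209 start at the upstream site and Rnf43-201 at the downstream one. Rnf43-206, the transcript with the most counts, starts at 87662722, before the upstream window. Rnf43-202 and Rnf43-203 start at 87664274 and 87664549, past its end. The upstream window thus does not cover the starts of Rnf43-206, Rnf43-202 or Rnf43-203. The Axin2 window is shown beside the Rnf43 windows as that of the classical Wnt feedback gene. CG pairs are in capitals. The upstream Rnf43 window is chr11:87662837-87663136, the downstream one chr11:87699647-87699946, and the Axin2 window chr11:108920099-108920398.
Rnf43 upstream start: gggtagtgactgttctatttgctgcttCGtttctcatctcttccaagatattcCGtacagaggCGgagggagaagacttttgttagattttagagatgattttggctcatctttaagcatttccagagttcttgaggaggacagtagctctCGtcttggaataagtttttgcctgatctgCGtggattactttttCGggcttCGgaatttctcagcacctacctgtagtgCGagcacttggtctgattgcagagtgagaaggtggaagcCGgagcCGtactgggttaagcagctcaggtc
Rnf43 downstream start: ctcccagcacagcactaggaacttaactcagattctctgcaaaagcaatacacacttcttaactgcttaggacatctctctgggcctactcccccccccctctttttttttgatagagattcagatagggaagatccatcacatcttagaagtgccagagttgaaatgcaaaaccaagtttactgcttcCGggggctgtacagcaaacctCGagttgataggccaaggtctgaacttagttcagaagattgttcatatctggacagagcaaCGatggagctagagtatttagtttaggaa
Axin2 start: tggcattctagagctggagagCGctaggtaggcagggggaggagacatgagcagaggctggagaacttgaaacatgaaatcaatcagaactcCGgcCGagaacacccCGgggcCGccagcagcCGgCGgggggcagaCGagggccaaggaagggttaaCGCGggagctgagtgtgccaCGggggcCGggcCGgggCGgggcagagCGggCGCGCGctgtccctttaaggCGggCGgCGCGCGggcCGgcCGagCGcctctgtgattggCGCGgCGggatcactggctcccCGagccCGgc
The Rnf43 windows hold 10 and 3 CG pairs at a GC content of 46.7% and 44.3%, and the Axin2 window holds 31 at 70%. The median of 32851 RefSeq windows of this length was 7 CG pairs. Of the other members with a window, Fzd4 has 32 CG pairs and the windows of Ctnnb1 have 46 and 51. The TCF/LEF core, searched on both strands as CTTTGAA, as the form CTTTGAT, as the form CTTTGTA and as the form CTTTGTT, was found in 0 of the 6 member windows and in 16.9% of all windows. That says only that these letters are not in these stretches.

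The deposited counts are estimated per transcript, so the Rnf43 rise could be split by start. Such estimates share reads between transcripts that overlap and are less certain than the gene sum. Transcripts beginning near the upstream start (5 of 9) summed to 3.26 ± 0.701, 9.05 ± 1.54, 14.7 ± 1.90 and 20.4 ± 4.37 CPM from 3M to 24M (SD, n = 4). Rnf43-201, a protein-coding transcript that begins at the downstream start, stood at 1.23 ± 0.183, 3.79 ± 0.462, 4.91 ± 1.25 and 4.98 ± 2.10 CPM at the same ages. Both were higher in every 24M library than in any 3M library. The upstream group was 6.26 times its 3M mean at 24M, and Rnf43-201 4.05 times. The share of Rnf43 counts on Rnf43-201 was 27.0% ± 2.32 in the 3M libraries and 19.5% ± 9.07 in those of 24M (SD, n = 4), with 24M libraries from 12.0% to 31.7%, so the shares overlapped. The transcript with the most counts was Rnf43-206, annotated as a retained intron, that is, as no coding message. It took 53.1% ± 4.80 of Rnf43 counts in 3M rods and 45.7% ± 4.24 in 24M rods, while its level went from 2.45 to 11.9 CPM. The 3 retained-intron transcripts together, mostly Rnf43-206, took 47.6% to 60.1% by library at 3M and 42.4% to 51.9% at 24M, so these shares overlapped. The 4 protein-coding transcripts together went from 1.77 ± 0.556 to 11.4 ± 2.02 CPM, a ratio of 6.48. Rnf43-202, a protein-coding transcript, had under 1 estimated count in every 3M library. Its 24M mean was 3.16 ± 2.34 CPM, with libraries from 0.629 to 5.28. Rnf43-209, also protein-coding, had under 1 estimated count in every library of 3M and 24M. Its means at 12M and 18M were 0.225 ± 0.450 and 0.350 ± 0.700 CPM, so single transcripts are read with caution. A count of 0 allows up to 3 counts, or 0.104 to 0.146 CPM by library. An intron of Rnf43 also holds 1110028F11Rik on the same strand, which was at 0.199 CPM at 3M and 0.655 CPM at 24M.

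**Figure D2:**
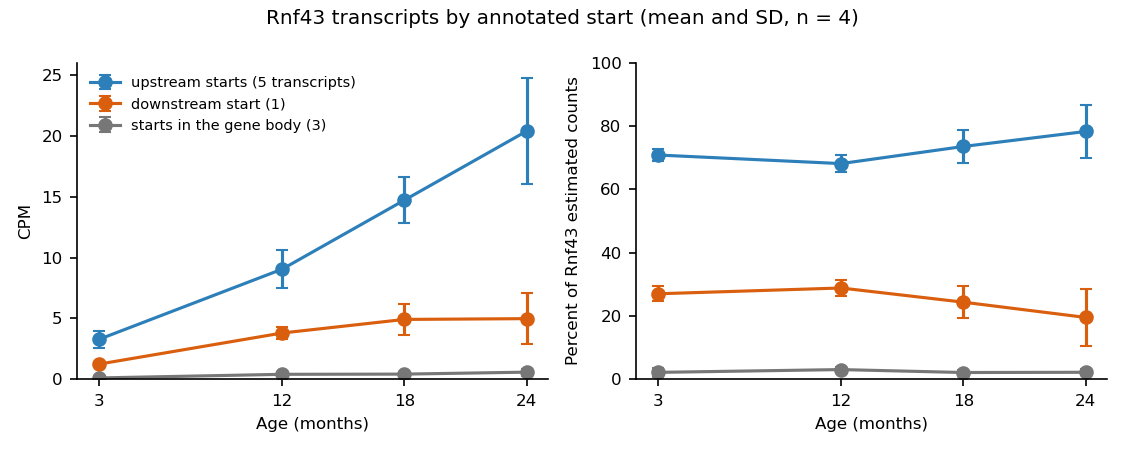
Rnf43 counts divided by where the annotated transcripts begin, in CPM (left) and as a percent of the gene's estimated counts (right), against age in months. Points and bars are the mean and SD over 4 libraries. Transcripts that begin near the upstream start rise from 3.26 to 20.4 CPM. Rnf43-201 of the downstream start rises from 1.23 to 4.98 CPM, while the shares of the gene overlap between ages.

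The genes around Rnf43 on chromosome 11 were examined next. Of 24 annotated genes within 200 kb, 7 were abundant enough to test at 24M against 3M, and 0 were called higher by edgeR, beside 2.65% of all 12177 genes tested. Their log2 changes ran from -0.57 to 0.11. Supt4a, a transcription elongation factor gene 2013 bases away, averaged 8.87 CPM in 3M libraries and 7.91 in 24M libraries (log2 change -0.17, edgeR adjusted p = 0.78). Hsf5, on the other side at 3180 bases, was at 0.499 CPM and was not tested. Of the 7, 1 was called lower, beside 1.6% of all genes tested. It was Sept4, a septin, 72183 bases away, which fell from 33.7 ± 3.33 to 22.7 ± 2.84 CPM (log2 change -0.57, edgeR adjusted p = 0.020).

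Znrf3 (ENSMUSG00000041961, chromosome 11, 5276324 to 5444847, minus strand), the paralogue with the same role, did not pass the test. Its 3M libraries stood at 14.1, 14.9, 13.2 and 16.04 CPM. Those of 24M stood at 16.8, 14.8, 16.7 and 15.3 CPM. The 2 groups overlap. The 12M libraries held 14.7 to 16.7 CPM and the 18M libraries 13.1 to 14.3 CPM, which puts 18M lowest, below every 12M and 24M library but overlapping 3M. The log2 change at 24M was 0.13 (SE 0.08, edgeR adjusted p = 0.56), and the 95% interval of the fold change ran from 0.969 to 1.23. Over all 4 ages the edgeR adjusted p was 0.61. Levels of both ligases were compared per length, as TPM. Rnf43 was at 1.20 ± 0.175 TPM and Znrf3 at 2.29 ± 0.0827 TPM in 3M rods, and 24M rods held 7.91 ± 0.818 and 2.72 ± 0.573 TPM (SD, n = 4). The Rnf43 to Znrf3 ratio of TPM was 0.522 ± 0.0621 at 3M, with libraries from 0.448 to 0.582. The later ages, in order, had ratios of 1.58 ± 0.342, 2.69 ± 0.368 and 2.97 ± 0.374. Summed over all transcripts, Znrf3 RNA was thus the more abundant in each 3M library, and Rnf43 RNA in each library of the later ages. The order at the later ages differed once noncoding transcripts were left out. With protein-coding transcripts alone, a comparison chosen after seeing the data, Rnf43 was 0.359 ± 0.147, 1.26 ± 0.329, 1.73 ± 0.376 and 2.51 ± 0.317 TPM from 3M to 24M, and its ratio to Znrf3 was 0.157 ± 0.0649, 0.485 ± 0.0751, 0.768 ± 0.0861 and 0.939 ± 0.113 (SD, n = 4). Coding Rnf43 was then above Znrf3 in 1 of 4 libraries at 24M and in 0 at the earlier ages.

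Neither of the 2 co-receptors passed the test. Lrp6 (ENSMUSG00000030201, chromosome 6, 134446476 to 134566965, minus strand) averaged 127 ± 6.00, 137 ± 10.5, 132 ± 9.61 and 127 ± 13.4 CPM from 3M to 24M (SD, n = 4). The libraries ran from 121 to 135 CPM at 3M and from 109 to 140 at 24M, so the 24M range took in the whole 3M range. Its log2 change was 0.01 (SE 0.09, edgeR adjusted p = 0.99), with a fold interval of 0.884 to 1.14. The sign of a value this small turned with several settings. Lrp5 (ENSMUSG00000024913, chromosome 19, 3584828 to 3686564, minus strand), the co-receptor of norrin, was 9.55 to 11.2 CPM at 3M and 8.69 to 12.8 at 24M. Its log2 change was 0.11 (SE 0.13, edgeR adjusted p = 0.81), with a fold interval of 0.894 to 1.30. For Lrp5, 98.5% of counts were assigned to Lrp5-204, annotated as a target of nonsense-mediated decay, and 0 counts in any library to the protein-coding Lrp5-201. For Lrp6, 85.3% of counts were on Lrp6-201.

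Of the 2 Frizzled genes, Fzd4 (ENSMUSG00000049791, chromosome 7, 89404355 to 89413134, plus strand) was the more abundant per length, at 3.80 against 0.067 TPM. It stood at 33.8, 31.3, 31.2 and 34.3 CPM in the 3M libraries and 40.1, 35.6, 34.4 and 37.1 CPM in the 24M libraries. The lowest 24M library was just above the highest 3M library. Means were 32.7 ± 1.64, 34.7 ± 1.56, 35.9 ± 0.898 and 36.8 ± 2.47 CPM from 3M to 24M (SD, n = 4), and the libraries of neighbouring ages overlapped. The log2 change at 24M was 0.17 (SE 0.07) with a fold interval of 1.02 to 1.24, and it was not called (edgeR adjusted p = 0.21). Without the 3 libraries absent from the authors' table it was 0.20 and was called (edgeR adjusted p = 0.030), where 12.2% of all genes were called higher. Fzd4 is best known from endothelial cells, and markers of these cells summed to 48.9 ± 6.97 CPM in 3M rods and 56.9 ± 4.83 in 24M rods (43.9 to 59.1 and 52.0 to 61.1 by library). Of 14 such markers, 5 were under 1 CPM in all libraries, and Erg had 0 counts in every library. The mean was higher at 24M than at 3M for 9 of the 14 and lower for 4. Kdr averaged 7.49 ± 2.88 and 10.7 ± 2.02 CPM at these ages, Flt1 7.08 ± 1.95 and 8.59 ± 1.85, Vwf 11.8 ± 0.941 and 13.4 ± 1.24, Tek 1.27 ± 0.518 and 1.86 ± 0.391, Pecam1 17.7 ± 1.11 and 18.3 ± 1.02, and Cdh5 0.271 ± 0.199 and 0.258 ± 0.182. Their part in the Fzd4 values was not tested. Fzd3 (ENSMUSG00000007989, chromosome 14, 65201026 to 65262463, minus strand), a Frizzled best known for axon guidance and planar polarity, was near the lower end of detection with 18 to 48 counts per library. Its mean was 1.30 ± 0.325 CPM in 3M rods and 0.994 ± 0.264 in 24M rods, and it reached 5 CPM in 0 libraries. With a minimum of 1 CPM its log2 change was -0.40 (SE 0.34, edgeR adjusted p = 0.72), with a fold interval of 0.457 to 1.25.

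The destruction complex scaffolds and β-catenin showed no called change. Axin2 (ENSMUSG00000000142, chromosome 11, 108920349 to 108950783, plus strand), the feedback gene often read as a sign of Wnt activity, stood at 27.2, 30.8, 34.99 and 33.7 CPM at 3M and 30.1, 30.1, 38.0 and 26.9 CPM at 24M. The 24M libraries lie on both sides of the 3M libraries. The log2 change was -0.02 (SE 0.12, edgeR adjusted p = 0.98), with a fold interval of 0.828 to 1.18, and over 4 ages the adjusted p was 0.94. Axin1 (ENSMUSG00000024182, chromosome 17, 26138688 to 26195811, plus strand), the constitutive scaffold, was 33.7 to 46.2 CPM at 3M and 34.2 to 49.6 at 24M. Its log2 change was -0.04 (SE 0.13, edgeR adjusted p = 0.95), with a fold interval of 0.801 to 1.18. For both Axin genes the direction of this small value turned when the length slope was a covariate and when some single libraries were left out. Ctnnb1 (ENSMUSG00000006932, chromosome 9, 120929216 to 120960507, plus strand) averaged 135 ± 5.81, 129 ± 21.8, 127 ± 10.98 and 126 ± 12.8 CPM from 3M to 24M (SD, n = 4). Its log2 change at 24M was -0.10 (SE 0.11, edgeR adjusted p = 0.79), with a fold interval of 0.796 to 1.09. Without those 3 libraries it was -0.17 and was called lower (edgeR adjusted p = 0.049), beside 11.5% of all genes called lower there. Ctnnb1 overlaps Ulk4 on the opposite strand over 5157 bases, and Ulk4 had a mean of 43.0 CPM. Whether the counting used strand was not stated in the sources used here, so reads of that stretch may belong to either gene.

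Over the 7 members tested besides Rnf43, edgeR called 0 at 24M against 3M, beside 4.25% of all 12177 genes. At an unadjusted p under 0.05 there was 1, Fzd4, beside 14% of all genes. DESeq2 and limma on the authors' gene CPM also called 0. The F-test over the 4 ages called 0 of 7, beside 2.82% of all genes, and 0 had an unadjusted p under 0.05, beside 10.8%. Without the 3 libraries absent from the authors' table, 3 of 7 (Fzd4, Axin1 and Ctnnb1) had an unadjusted F-test p under 0.05, beside 45.6% of all genes, and 0 were called by it. Libraries of 24M and 3M did not overlap for 1 of these 7, Fzd4, beside 10.6% of all genes tested, or 5.28% with 24M above 3M. In the fit of all 16 libraries, intervals of the fold change of these 7 genes lay between 0.796 and 1.30, so larger changes than these were outside them. Without the 3 libraries, some intervals reached further. The upper log2 limit was then 0.417 for Lrp5, against 0.378 with 16 libraries. The lower log2 limit was -0.362 for Axin1, against -0.320.

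**Figure D3:**
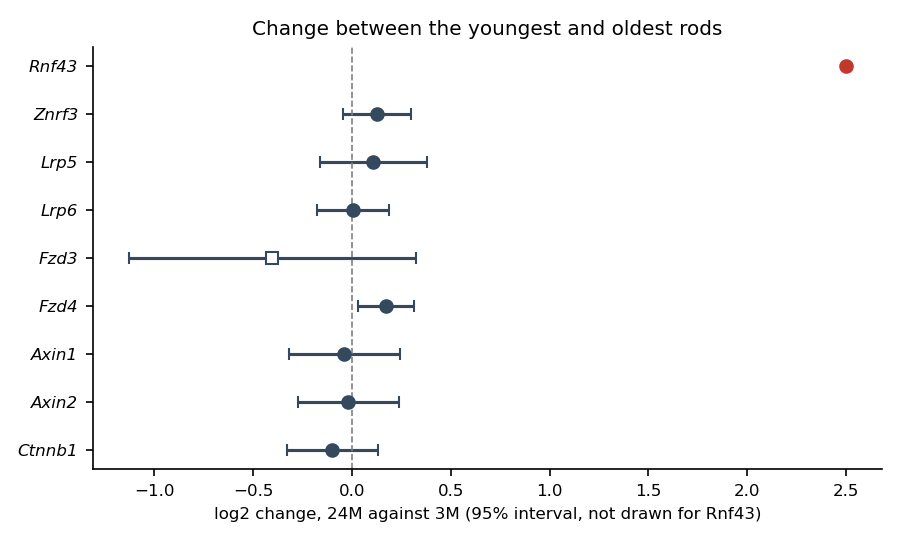
Log2 change at 24M against 3M of each member, with its 95% interval for all but Rnf43, from the edgeR fit over 16 libraries (Fzd3, open square, from the fit with a minimum of 1 CPM). Rnf43 lies at 2.50, given as a description with no interval, and the 7 other tested members lie between -0.10 and 0.17.

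Per length, the members spanned a wide range of levels. Averaged over 16 libraries, Ctnnb1 was highest at 43.3 ± 6.11 TPM, followed by Lrp6 at 20.3 ± 5.56 and Axin1 at 19.8 ± 3.20 TPM, a pair closer than their spread (SD, n = 16). These sums take in noncoding transcripts, and short ones weigh more per length. The retained intron Axin1-205, of 291 bases, took 11.1% of Axin1 counts. The retained intron Lrp6-205, of 941 bases, took 5.90% of Lrp6 counts. The order of these genes by coding transcripts alone was not examined. Summed over all its transcripts, Rnf43 changed rank with age. Axin2 was 9.18 ± 1.19 TPM, Rnf43 4.82 ± 2.70, Fzd4 3.80 ± 0.852 and Znrf3 2.47 ± 0.482 TPM. In 3M rods Rnf43, at 1.20 TPM, was below Fzd4 (3.19) and Znrf3 (2.29), and in 24M rods, at 7.91 TPM, above both (4.17 and 2.72). These Rnf43 sums take in noncoding transcripts, while all Fzd4 and Znrf3 transcripts are annotated as protein-coding. Protein-coding Rnf43 alone was 0.359 ± 0.147 TPM at 3M and 2.51 ± 0.317 at 24M. Both values are below the Fzd4 and Znrf3 means of the same age, though at 24M the spread overlapped that of Znrf3. At the low end, Lrp5 was 0.904 ± 0.246 and Fzd3 0.067 ± 0.023 TPM. With the mean annotated length per gene in place of transcript lengths, Lrp5 was 1.51, Lrp6 30.95, Fzd3 0.117 and Axin1 13.0 TPM.

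The wider Wnt pathway was represented by 103 genes besides the members in 7 lists, of which 102 were analysed and 43 tested. At 24M against 3M, 2 of the 43 were called higher and 3 lower, Tle2 counted among the 3, beside 2.65% and 1.6% of all genes tested. The median log2 change of the 43 genes was 0.0071, beside 0.011 over all genes tested, with 22 above and 21 below 0. Fzd5, a Frizzled receptor of eye development, rose. Its 3M libraries stood at 31.4, 27.9, 27.3 and 34.7 CPM and its 24M libraries at 43.3, 44.8, 44.5 and 41.4 CPM, with no overlap. The log2 change was 0.52 (SE 0.09, edgeR adjusted p = 0.0017). Tle1, a Groucho-type co-repressor that TCF/LEF factors recruit, rose from 6.55 ± 2.18 to 13.7 ± 1.91 CPM (log2 change 1.06, SE 0.20, edgeR adjusted p = 0.0038). Its relative Tle2 fell from 7.25 ± 1.98 to 3.92 ± 0.207 CPM (log2 change -0.88, SE 0.18). Tle2 passed the 5 CPM filter only with its 3M libraries, where it is highest, so this change is a description with no test. With a minimum of 1 CPM, which Tle2 reached in all 16 libraries, its log2 change was -0.90 (SE 0.18, edgeR adjusted p = 0.0080). Bcl9, a β-catenin co-activator, fell from 23.3 ± 3.06 to 15.97 ± 2.001 CPM (log2 change -0.55, SE 0.13, edgeR adjusted p = 0.024). Csnk1e, a casein kinase of the pathway, fell from 24.1 ± 2.94 to 18.3 ± 1.23 CPM (log2 change -0.40, SE 0.09, edgeR adjusted p = 0.020). The calls of Fzd5 and Tle1 held in all 16 fits that leave out 1 library, with edgeR adjusted p up to 0.018 for Tle1. These fits kept the filter of all 16 libraries, so for Tle2 they are no further test. Bcl9 lost its call without 24M replicate 1, 2 or 4 or 3M replicate 2, 3 or 4, with adjusted p up to 0.095. Csnk1e lost it without 24M replicate 1 or 4 or 3M replicate 3, with adjusted p up to 0.076. With limma on the authors' gene CPM, 0 of the 3 lower genes was called (adjusted p from 0.13 to 0.50) and both higher calls held. At pseudocounts of 0.5 and 2 the log2 change was then -0.18 and -0.17 for Csnk1e, -0.57 and -0.45 for Tle2, and -0.53 and -0.49 for Bcl9. Csnk1e also lost its call with no filter (edgeR adjusted p = 0.071). Csnk1e overlaps Gm16059 on the opposite strand over 4410 bases.

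**Figure D4:**
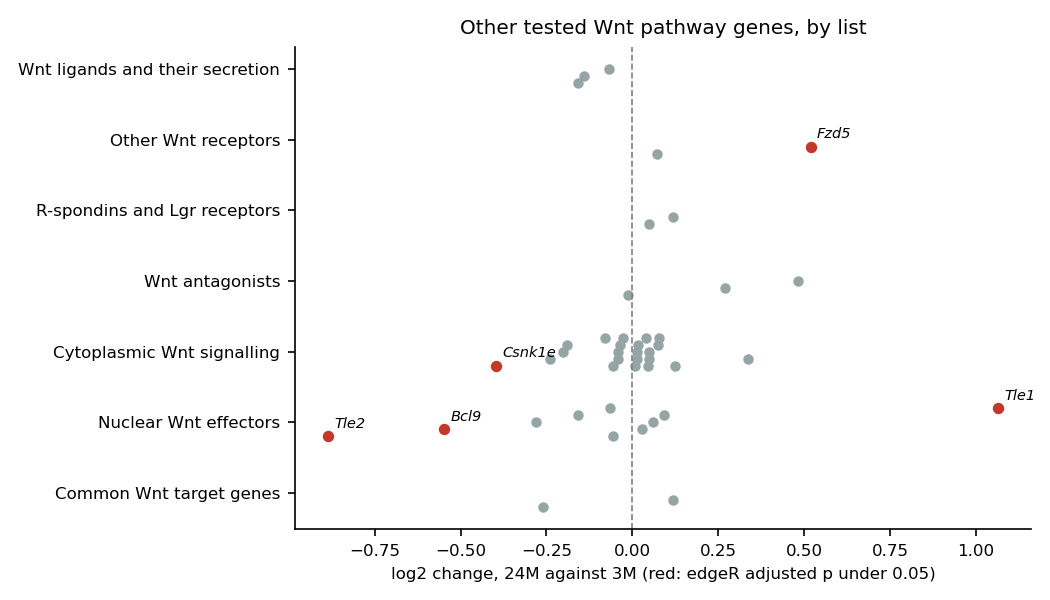
Log2 change at 24M against 3M of each tested Wnt gene by list, called genes in red, with Lgr5 in 2 lists. Most of the 43 genes lie near 0, and the called ones are Fzd5 and Tle1 above 0 and Csnk1e, Bcl9 and Tle2 below it. Tle2 passed the filter only with its 3M libraries.

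By list, 3 of 22 genes for Wnt ligands and their secretion were abundant enough to test, and 0 were called. Wnt2b was at 9.72 CPM with a log2 change of -0.07, and Porcn, the enzyme that acylates Wnt proteins, at 8.14 CPM with -0.14. Norrin itself (Ndp) averaged 1.35 CPM and Tspan12, the partner of Fzd4 in norrin signalling, 0.190 CPM, and neither was tested. Other receptors gave 2 tested genes, Fzd5 and Ryk, the latter at 36.1 CPM with a log2 change of 0.07. Of the R-spondins and Lgr receptors, Lgr4 was at 20.8 CPM (log2 change 0.05) and Lgr5 at 4.47 CPM (0.12), with 0 of 2 called. Rspo1 averaged 0.341 CPM. Rspo2 was too low for the 5 CPM filter, but its 3M libraries held 2.40 to 5.71 CPM and its 24M libraries 0.238 to 0.684 CPM, with no overlap. Its means were 3.31 ± 1.60, 1.38 ± 1.16, 0.526 ± 0.197 and 0.469 ± 0.184 CPM from 3M to 24M. With a minimum of 1 CPM, which Rspo2 reached in 6 libraries including all 4 of 3M, its log2 change was -2.83 (SE 0.51). Rspo2 passed that filter only with its 3M libraries, where it is highest, so its change is a description with no test. That fit tested 59 Wnt genes and called 5 lower, Rspo2 counted among them, beside 1.52% of all 17683 genes there. The other new one was Tcf7l2, a TCF/LEF factor (2.78 ± 0.496 to 1.33 ± 0.122 CPM, log2 change -1.07, edgeR adjusted p = 0.022). Of 3 antagonists tested 0 were called, among them Dkk3 at 21.1 CPM (log2 change 0.48, edgeR adjusted p = 0.70) and Kremen2 at 12.5 CPM (0.27, adjusted p = 0.31). Dkk3 is also one of the Müller glia markers. The cytoplasmic list had 22 of 24 genes tested, 1 of them called lower, and its members of highest CPM, Usp34 (515 CPM) and Apc (348 CPM), had log2 changes of 0.01 and 0.08. Among 10 nuclear effectors tested, 1 was called higher and 2 lower, Tle2 counted among the 2. Chd8 (238 CPM) and Tle4 (90.8 CPM) had log2 changes of 0.09 and 0.06 and were not called. Of the common target genes besides members, Lgr5 and Ccnd1 were tested. Ccnd1 was at 6.19 CPM with a log2 change of -0.26, and 0 of the 2 were called.

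Genes whose levels ran most like those of Rnf43 were ranked by Pearson's r of log2 CPM over the 16 libraries, among tested protein-coding genes. These are descriptions, since all share the same libraries and ages. Zbtb8a had r = 0.987 and went from 13.6 CPM at 3M to 44.5 at 24M. Fndc1 (r = 0.980) went from 67.5 to 186 CPM, and Alpk2 (r = 0.978) from 28.9 to 73.2 CPM. All of these, like Rnf43, had a higher mean at each later age, which ranking by r with Rnf43 favours. Scd1, a fatty acid desaturase (r = 0.978), went from 1.17 to 8.96 CPM, and Tmem116 (r = 0.976) from 8.38 to 32.6 CPM. After the age means were taken out, r was 0.681 for Zbtb8a, 0.481 for Fndc1, 0.647 for Alpk2, 0.331 for Scd1 and 0.506 for Tmem116. Opposite-strand overlaps make some of these counts uncertain. Tmem116 overlaps Adam1a over 5608 bases (Adam1a at 68.1 CPM), Gm42878 over 5571, Adam1b over 3338, Gm15546 over 826 and Erp29 over 614. Zbtb8a overlaps Zbtb8os over 920 bases, and Alpk2 overlaps 4 noncoding genes, the longest stretch being 19668 bases. Among the members, r with Rnf43 was 0.67 for Fzd4 and 0.19 for Znrf3, and -0.06 for Axin2.

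**Figure D5:**
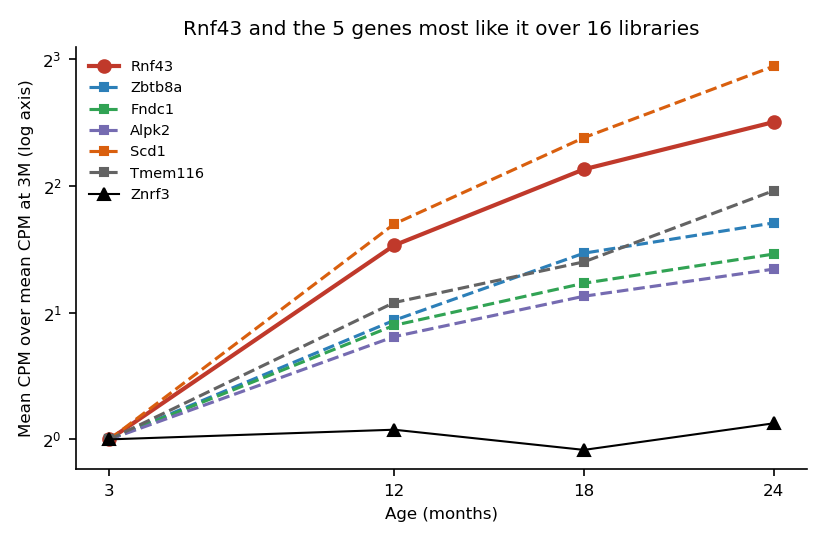
Mean CPM at each age in months divided by the mean at 3M, on a log axis, for Rnf43, the 5 genes with the highest r (dashed) and Znrf3 (black). The 5 genes have higher means at each later age, from 13.6 to 44.5 CPM for Zbtb8a, and Znrf3 stays between 13.7 and 15.9 CPM.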

How the data were processed

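The authors deposited estimated counts per transcript for 16 libraries, a gene table in CPM, a normalized CPM signal for 13 libraries, and a table of comparisons with log2 differences, an F score, p-values and adjusted p-values, per the file headers. Tools listed in the submitters' processing notes are limma 3.32.2, edgeR 3.13.9 and kallisto 0.42.5, and the build is GRCm38.p4. The sources used here do not state the strand setting of the counting. Its annotation is given only by the name of the deposited gene CPM, which carries an Ensembl version. Transcript names and types here are those of GENCODE and may differ from those of the annotation used for counting.

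Estimated counts of 111896 of 113468 transcripts were matched to GENCODE genes by identifier (0.730% to 1.08% of a library's counts were unmatched), summed to 45038 genes and rounded. The 12177 genes that reached 5 CPM in 4 or more libraries entered the quasi-likelihood test of edgeR 4.0.16 (R 4.3.3), with TMM scaling and 1 mean for each age. The contrast was 24M against 3M, with an F-test over the 4 ages. Benjamini-Hochberg adjustment ran over all genes tested, and adjusted p under 0.05 is called. The scripts were tested on simulated data. TPM used annotated transcript lengths. A count of 0 allows up to 3 counts. PCR copies are not independent molecules, so this floor covers counting error only.

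Members, gene lists and marker lists were chosen with earlier results of these data known. Named genes are the members, the called Wnt genes, the 2 tested genes of highest mean CPM in each Wnt list, the 5 protein-coding genes most correlated with Rnf43, and marker sums. A gene that the rule also names is not reported here. Genes around Rnf43, genes that overlap a named gene single endothelial markers and the low genes Ndp, Tspan12, Rspo1, Rspo2 and Tcf7l2 were named after their values were seen. Promoter sequences are from RefSeq (GRCm38.p6), which gave windows for 4 of the 9 members. Alternatives were DESeq2 1.42.0, its size factors in edgeR, a minimum of 1 CPM, no filter, limma 3.58.1 on the authors' gene CPM with pseudocounts of 0.5 and 2, a replicate block, the 13 libraries, the length slope as a covariate, and each library left out in turn.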

Additional observations from a re-analysis of the deposited data

Results flagged for a closer look

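In 4 of 76 groups of 4 libraries, 1 library stood far from the other 3. Chance alone flags about 1 in 20 such groups. Rnf43 at 24M was highest in replicate 3 at 31.7 CPM, and the other 3 libraries were at 23.3 to 24.5 CPM. Fzd3 at 12M was highest in replicate 4 at 2.32 CPM, against 0.674 to 0.941 CPM. Ctnnb1 at 18M was lowest in replicate 3 at 110 CPM (110.2), against 130.4 to 134.0 CPM. The summed rod markers at 12M were highest in replicate 4 at 50886 CPM, against 39195 to 40399 CPM. These 3 libraries are the ones that the authors' normalized table leaves out. The cause was not tested.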

How the results depend on the processing

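Over 16 libraries 323 genes were called higher and 195 lower at 24M, and 344 differed among the 4 ages. With the 13 libraries that the authors normalized these were 1482, 1398 and 3546, and with the length slope as a covariate 751, 643 and 881. DESeq2 called 338 lower and 665 over the 4 ages. Leaving out 1 library gave 244 to 419 higher, 129 (without 24M replicate 4) to 306 (without 12M replicate 4) lower, and 221 (without 3M replicate 2) to 543 (without 12M replicate 4) over the 4 ages. The cause was not tested. Wnt genes called lower were 0 with limma at either pseudocount and 5, Rspo2 among them, with a minimum of 1 CPM. They were 1 to 3 with 1 library left out, Tle2 counted among them, and 1 without 24M replicate 1 or 4 or 3M replicate 3. Wnt genes called higher stayed at 2 with 1 library left out.

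The Rnf43 log2 change was 2.39 to 2.63 with 1 library left out and 2.11 with limma at a pseudocount of 2, which understates changes of low genes. Small changes turned sign. With the length slope, Lrp5 was -4.1e-05, Lrp6 -0.068, Axin1 0.058 and Axin2 0.070. Lrp6 was -0.10 with limma at both pseudocounts, -0.012 with a minimum of 1 CPM and -0.013 with no filter. With 1 library left out, Lrp6 ranged from -0.041 to 0.073, Axin1 from -0.16 to 0.028 and Axin2 from -0.13 to 0.049. Rnf43, Znrf3, Fzd3, Fzd4 and Ctnnb1 kept their sign in the fits run.

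Replicate numbers did not pair the libraries: correlations of same-numbered deviations ran from -0.744 to 0.726, and 4 of 16 libraries matched best with their own number. With a replicate block, 285 genes were higher, 159 lower and 266 differed among ages, 2 Wnt genes were higher and 3 lower, and Rnf43 changed by 2.50. Depth limits Fzd3, with 18 to 48 counts per library.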
